A study of Mus musculus with 6 samples.

Results

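The genes described here act in the nucleolus, where ribosomes are made. They are 40 named genes of ribosome biogenesis, taken by their symbols together with every probe set annotated to 1 of those symbols alone. This gave 84 probe sets for 39 of the 40 genes, out of 34945 probe sets and 18193 genes with a symbol of their own on the array. Npm3 had no probe set annotated to it alone and was not analysed here.

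RNA was measured in 32D cells, a mouse line of C3H/HeJ origin. Per the labels, the line came from the bone marrow of an animal infected with Friend leukemia virus and needs interleukin-3 (IL-3) to grow. The control group was 3 mock-transduced samples, titled for MSCVpuro, a retroviral vector with a puromycin resistance gene. The other group was 3 samples transduced with Nup98::Nsd1, a fusion of a nuclear pore protein and a histone methyltransferase that is known from acute myeloid leukaemia. The labels name no age, no time after transduction and no batch, and do not say whether a group was 1 clone or a pool. They also do not say that samples were separate cultures, so the p-values below reflect the spread among these samples alone, and that spread may be technical. For every sample 1 Affymetrix array (Mouse Genome 430 2.0) was used, and its deposited MAS5 signals are intensities on a linear scale, each with a call for detection (Present, Marginal or Absent). The number of arrays, 3 in each group, limits the precision.

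RNA polymerase I copies the repeated ribosomal DNA into a long precursor RNA, which is cut, chemically modified and folded onto proteins in the nucleolus. Small nucleolar ribonucleoproteins (snoRNPs) guide the modification: box C/D particles methylate the RNA and box H/ACA particles convert uridine to pseudouridine. The small subunit processome then builds the precursor of the 40S subunit, while a separate set of assembly factors builds that of the 60S subunit. Proliferating blood progenitors are known for prominent nucleoli, and genes of this pathway are textbook targets of the transcription factor MYC.

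Most of the nucleolar genes had lower signals in Nup98::Nsd1 cells. Of the 84 probe sets, 78 were tested, being Present throughout 1 group or both, and where a gene had several it was read from the one with the highest log2 signal on average, called its brightest below. By this reading 38 genes were tested, each Present on all 6 arrays. Of these, 28 fell, 3 rose (Tcof1, Gnl3 and Ubtf) and 7 did not pass the threshold of an adjusted p of 0.05 in limma, a linear model with moderated variances, adjusted by Benjamini-Hochberg over 20494 probe sets. The share that fell was 73.7%, against 29.5% of all 9641 genes tested. The share that rose was 7.89%, against 42.9% of all genes. In 4 of the 38 genes (10.5%) the fall was at least 2-fold, against 2.60% of all genes. Brighter genes tended to lower log2 fold changes over all genes (rank correlation with mean log2 signal -0.28). Over the 38 genes the correlation was -0.015. The part of signal level in the shares above was not tested.

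The median log2 fold change (Nup98::Nsd1 over mock) of the 38 genes was -0.45, against 0.12 over all genes, and 36 of the 38 lay below that all-gene median. All genes but Tcof1 and Gnl3 are among these 36. The fitted values ran from -1.19 for Polr1b to 0.39 for Tcof1. Taken array by array, the median of the 38 genes relative to the mock mean was -0.013, 0.0046 and 0.012 on the log2 scale in the mock samples and -0.46, -0.34 and -0.44 in the Nup98::Nsd1 samples. The groups therefore stood apart by more than the spread between arrays, a pooled SD of 0.046. The same median over all genes was 0.13, 0.12 and 0.11 on the Nup98::Nsd1 arrays. The signals of the groups did not overlap in 30 of the 38 genes (78.9%), a share close to the 75.1% of all genes. In bulk RNA such as this, fewer cells of a type and less RNA per cell cannot be told apart.

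**Figure D1:**
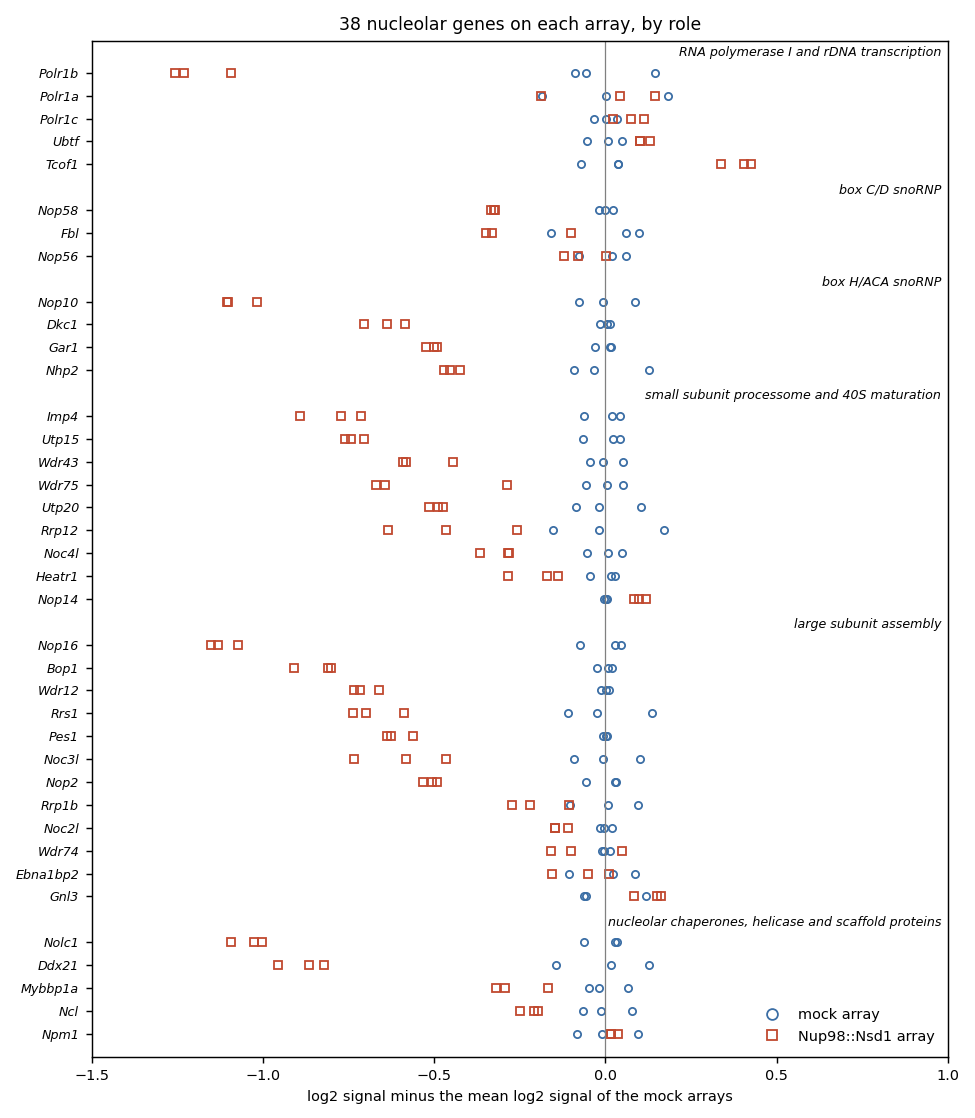
Log2 signal of the brightest tested probe set of each of 38 nucleolar genes on each array, minus the mean of the 3 mock arrays, ordered by role; circles are mock arrays and squares Nup98::Nsd1 arrays. Squares lie left of the circles for most genes, farthest for Polr1b (-1.19), and right of them for Tcof1 (0.39).

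**Figure D2:**
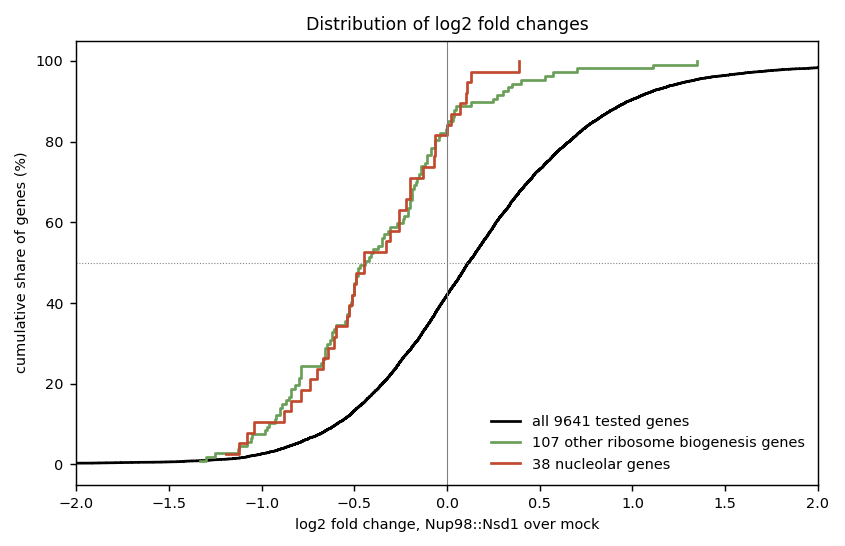
Cumulative share of genes (%) against log2 fold change, Nup98::Nsd1 over mock, for all 9641 tested genes, 107 other ribosome biogenesis genes and the 38 nucleolar genes; the axis is cut at -2 and 2. The curve of the 38 genes lies left of the curve of all genes, with medians of -0.45 and 0.12.

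These counts depend on how arrays are set on a common scale, because 60.5% of all calls were higher as deposited. Centring arrays on their 75th percentile or on their median moved the all-gene median from 0.12 to -0.081 and -0.054, and 44.8% and 47.1% of calls were then higher. Scaling to the 18 hybridization control probe sets moved the all-gene median to -0.25, with 32.3% of calls higher, and quantile normalization moved it to 0.01, with 49.7% higher. The nucleolar genes fell in 28 cases as deposited, 28 after quantile normalization, 32 with median centring, 33 with the 75th percentile and 37 with the hybridization controls. Both centrings and the hybridization controls shift all genes of an array alike, so the median relative to all genes, -0.57, is the same under them by construction. Quantile normalization can change it, and there it was -0.39, with 31 of the 38 genes below the all-gene median.

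**Figure D3:**
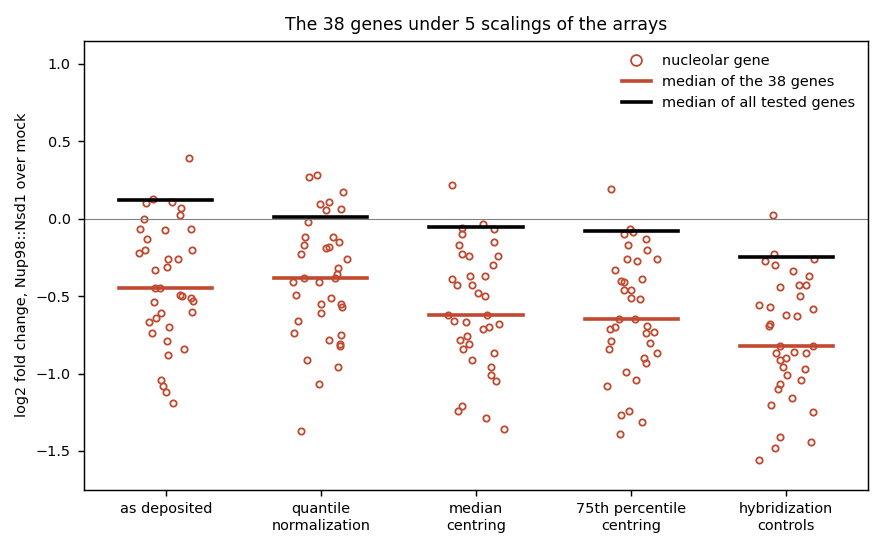
Log2 fold changes of the 38 nucleolar genes (circles) under 5 scalings of the arrays, with their median (red line) and the median of all tested genes (black line). Both medians move with the scaling, the gap between them being -0.39 with quantile normalization and -0.57 otherwise, which is fixed because the other scalings shift all genes alike.

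Several other measures also differed between the groups. The share of probe sets called Present was 45.1% to 45.9% on mock arrays and 47.6% to 48.2% on Nup98::Nsd1 arrays. For Actb, the 3' control probe set over the 5' one, a measure of RNA integrity and labelling, gave 1.18 ± 0.03 (SD, n = 3) in mock and 1.47 ± 0.026 (SD, n = 3) in Nup98::Nsd1 samples, and for Gapdh the ratio was 0.760 ± 0.016 and 0.816 ± 0.024. Of 10 myeloid progenitor markers 7 were Present on all 6 arrays (Ptprc, Spi1, Mpo, Ctsg, Prtn3, Ms4a3 and Csf2rb), whereas Kit and Cd34 were Present on none. Elane was Present on all mock arrays but not on all Nup98::Nsd1 arrays. The summed signal of the myeloid progenitor markers was 62152 to 66133 in mock and 38208 to 39070.1 in Nup98::Nsd1 samples. No T cell marker of 5 was Present throughout either group, and Cd3e, Cd3d, Cd3g and Cd4 were Present on no array, with sums of 158 to 164 and 65.4 to 88.9. Sums for 3 B cell markers were 68.8 to 132 and 77.9 to 193, for 3 erythroid markers 239 to 308 and 127 to 197, for 4 stromal markers 80.1 to 146 and 124 to 158, and for 4 epithelial markers 170.5 to 196 and 171 to 237. Of the defining markers, Cd79a, Pax5, Hba-a1, Col1a2, Epcam, Krt18 and Cdh1 were Present on no array. Of the erythroid markers 1 was Present on all mock arrays and 0 on all Nup98::Nsd1 arrays. The part of these measures in the differences below was not tested.

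The genes of RNA polymerase I and its ribosomal DNA factors did not move together: of 5, 1 fell, 2 rose and 2 did not pass, with a median of 0.07. Polr1b, the second largest subunit of the enzyme, read 833, 959 and 815 on the mock arrays and 369, 363 and 406 on the Nup98::Nsd1 arrays. The groups stood far apart, 2.29-fold lower (log2 fold change -1.19, SE 0.087, adjusted p = 2.56e-07 in limma). This was the largest of the 38 fitted changes on the deposited scale, but not with 64 added to each signal (-1.07, against -1.09 for Nop16) or with the mean of probe sets (-1.19, against -1.25 for Nop10). Polr1a, the largest subunit, read 319, 280.2 and 361 in mock and 279.5, 328 and 352 in Nup98::Nsd1 samples. The groups overlapped (log2 fold change -0.00059, SE 0.13, adjusted p = 0.997 in limma). A second tested Polr1a probe set read 199, 204 and 183 in mock and 170.3, 169 and 145 in Nup98::Nsd1 samples. These did not overlap, but the difference did not pass (-0.27, SE 0.14, adjusted p = 0.0983 in limma). Another 3 Polr1a probe sets were too seldom Present to be tested. Polr1c, a subunit shared with RNA polymerase III, read 1848, 1890.1 and 1803 against 1877, 1943 and 1998, which overlapped (0.07, SE 0.048, adjusted p = 0.213 in limma). With the hybridization controls Polr1a (-0.37) and Polr1c (-0.30) were both called lower.

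Both genes of this group that rose did so on the deposited scale. Tcof1, encoding treacle, a partner of RNA polymerase I in ribosomal DNA transcription, read 741, 741 and 688 in mock and 914, 971 and 957 in Nup98::Nsd1 samples. The groups were apart (log2 fold change 0.39, SE 0.064, adjusted p = 0.000195 in limma), and the value stayed above 0 under all scalings but was 0.025 and no longer called with the hybridization controls. Ubtf, the factor UBF that keeps ribosomal DNA open for transcription, read 2212, 2373 and 2307 against 2463, 2513 and 2460.5. This small rise (0.11, SE 0.046, adjusted p = 0.0478 in limma) turned into -0.26, -0.086 and -0.059 with hybridization control, 75th percentile and median centring. It also did not pass when mock array 1 or 3 or Nup98::Nsd1 array 1, 2 or 3 was left out, at 0.083, 0.11, 0.11, 0.10 and 0.12 in that order.

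All 4 genes of box H/ACA snoRNP proteins fell, under every one of the 5 scalings, with a median log2 fold change of -0.57 as deposited. Of these scalings, both centrings and the hybridization controls moved all genes down. Nop10, the smallest protein of the particle, had signals of 11274, 11846 and 12623 in mock and 5541, 5529 and 5881 in Nup98::Nsd1 cells. Every Nup98::Nsd1 array was below every mock array, 2.11-fold on average (-1.08, SE 0.049, adjusted p = 5.94e-09 in limma). Dkc1, or dyskerin, the pseudouridine synthase of the particle, read 8447, 8328 and 8507 in mock and 5622, 5413 and 5173 in Nup98::Nsd1 cells. Its groups were likewise apart (-0.64, SE 0.042, adjusted p = 9.87e-08 in limma), and its other probe sets both gave -0.68. Gar1, which helps the RNA substrate bind and leave, fell from 6277 ± 117 to 4425 ± 50.4 (mean ± SD, n = 3; -0.50). Nhp2, an RNA-binding protein of the particle, fell from 11825 ± 945 to 8639 ± 142 (mean ± SD, n = 3; -0.45).

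Of the 3 genes of box C/D snoRNP proteins 2 fell, with a median of -0.26. Nop58, a scaffold protein of the particle, fell from 8069 ± 119 to 6432 ± 25.1 (mean ± SD, n = 3; log2 fold change -0.33). Fbl, or fibrillarin, the methyltransferase, went from 8706 ± 808 to 7271 ± 710.3 (mean ± SD, n = 3), a fall (-0.26) whose arrays overlapped and whose call was lost with quantile normalization (-0.15) and without the intensity trend. Nop56, the partner of Nop58, read 7362, 7879 and 8099 in mock and 7348, 7787 and 7143 in Nup98::Nsd1 samples on its brightest probe set. These groups overlapped (-0.067, SE 0.049, adjusted p = 0.237 in limma). It was called lower with 75th percentile centring (-0.26), median centring (-0.24), the hybridization controls (-0.43) and the mean of its probe sets (-0.29), and was 0.061 after quantile normalization. A second Nop56 probe set read 6994, 7557 and 7529 against 5172, 5135 and 5075, without overlap (-0.52, SE 0.043, adjusted p = 6.47e-07 in limma). Whether the H/ACA genes moved more than the C/D genes was not tested.

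**Figure D4:**
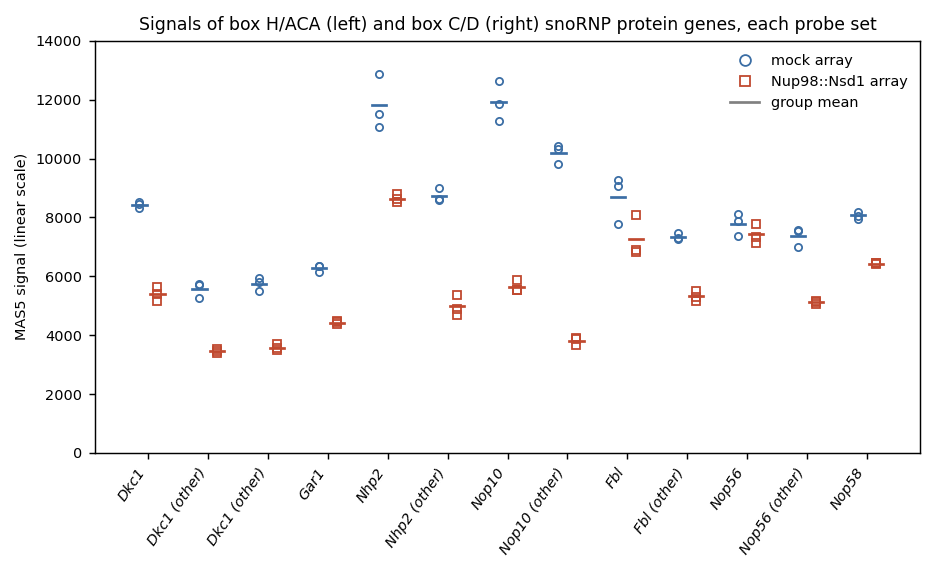
MAS5 signal (linear scale) of every probe set of 4 box H/ACA and 3 box C/D snoRNP protein genes; circles are mock arrays, squares Nup98::Nsd1 arrays and bars group means (n = 3). Every H/ACA probe set separates the groups, as do that of Nop58 and the other ones of Fbl and Nop56. The brightest Fbl and Nop56 probe sets overlap. Among all tested probe sets the groups did not overlap in 73.2%.

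Among the genes of the small subunit processome and 40S maturation, 8 of 9 tested fell, with a median of -0.49. Imp4, part of the module that holds the U3 snoRNA on the precursor, read 3111, 2941 and 3164 in mock and 1871, 1656 and 1797 in Nup98::Nsd1 cells, 1.73-fold lower (-0.79, SE 0.055, adjusted p = 1.76e-07 in limma). Utp15, of the early UTP-A complex, read 1841, 1985 and 1956 against 1151, 1182 and 1136, 1.67-fold lower (-0.74, SE 0.052, adjusted p = 1.91e-07 in limma). In both genes all Nup98::Nsd1 arrays lay below all mock arrays. The genes of the WD-repeat proteins Wdr43 and Wdr75, also of UTP-A, fell by 0.54 and 0.53 on the log2 scale. For Wdr75 the second Nup98::Nsd1 array, at 3912, stood above the others at 3002 and 3055, and the mean over its probe sets, at -0.13, was not called.

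The other small subunit genes that fell did so by less. Utp20, a large processome scaffold, went from 1242 ± 83.9 to 882 ± 12.5 (mean ± SD, n = 3; -0.49), and Rrp12, a 40S export factor, from 526 ± 60.0 to 385 ± 50.7 (mean ± SD, n = 3; -0.45). Noc4l, a partner of Nop14, went from 1719.6 ± 61.8 to 1386 ± 46.0 (mean ± SD, n = 3; -0.31) and Heatr1, a UTP-A protein that also acts in ribosomal DNA transcription, from 1864 ± 49.7 to 1626 ± 85.2 (mean ± SD, n = 3; -0.20). Nop14 itself, a processome core protein, read 1616, 1622 and 1625 in mock and 1718, 1735 and 1759.9 in Nup98::Nsd1 samples. Its arrays did not overlap, but the difference did not pass (0.10, SE 0.046, adjusted p = 0.0702 in limma) and took the opposite sign with 75th percentile (-0.10) or median centring (-0.069) and with the hybridization controls (-0.27). Rrp9, the U3-specific snoRNP protein, was not tested. Its only probe set read 867, 949.5 and 958 in mock, where 2 arrays were Present, and 471, 339 and 549 in Nup98::Nsd1 cells, where none was, without overlap.

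Of the 12 large subunit assembly genes, 9 fell, 1 rose and 2 did not pass, with a median of -0.55. Nop16, a nucleolar 60S factor, read 3438, 3395 and 3159.9 in mock and 1519, 1497 and 1583 in Nup98::Nsd1 cells, 2.17-fold lower (-1.12, SE 0.05, adjusted p = 5.44e-09 in limma). Bop1, Pes1 and Wdr12 form the PeBoW complex, which acts on the precursors of the large subunit's RNAs, and all 3 genes fell. Bop1 read 2500.4, 2556 and 2577 against 1355, 1461 and 1452, 1.79-fold lower (-0.84, SE 0.049, adjusted p = 4.19e-08 in limma). Wdr12 read 3949, 3902 and 3972 against 2368, 2491 and 2396, 1.63-fold lower (-0.70, SE 0.042, adjusted p = 4.76e-08 in limma). Pes1 read 3027, 3044 and 3046 against 2060.0, 1967 and 1955, 1.52-fold lower (-0.61, SE 0.044, adjusted p = 2.19e-07 in limma). The mock arrays of these 3 genes lay close together and far above every Nup98::Nsd1 array.

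Rrs1, which brings the 5S RNA particle into the large subunit precursor, read 5908, 5285 and 4991 in mock and 3581, 3315 and 3229 in Nup98::Nsd1 cells, without overlap (-0.67, SE 0.063, adjusted p = 1.92e-06 in limma). Noc3l fell from 627 ± 42.1 to 416 ± 38.6 (mean ± SD, n = 3; -0.60) and Nop2, an RNA cytosine methyltransferase, from 2177 ± 74.6 to 1529 ± 22.3 (mean ± SD, n = 3; -0.51). Rrp1b and Noc2l had small falls of 0.20 and 0.13 on the log2 scale. Neither call held throughout: that of Rrp1b was lost without mock array 2 (-0.15) or Nup98::Nsd1 array 1 (-0.16), and that of Noc2l without mock array 1 (-0.12) or 2 (-0.14) or Nup98::Nsd1 array 2 (-0.13). The mean over both Noc2l probe sets was 0.01. The other Rrp1b probe sets gave -0.56, called lower, and 0.13, not called. The last of these differed from the brightest (adjusted p = 0.0387 in limma).

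Gnl3, or nucleostemin, a nucleolar GTPase known from stem cells, read 4789, 4768 and 5409 in mock and 5274, 5533 and 5572 in Nup98::Nsd1 samples. The groups overlapped, and the rise (0.13, SE 0.053, adjusted p = 0.0435 in limma) took the opposite sign with hybridization control scaling (-0.23) and 75th percentile (-0.064) or median centring (-0.037). Without mock array 1 or 2 it was 0.10 and was not called, nor was it without Nup98::Nsd1 array 2 or 3, at 0.12. Wdr74 read 2354, 2342 and 2381 against 2198, 2112 and 2440.0, and Ebna1bp2 read 4222, 4412 and 3861 against 4189, 4015 and 3736. Both act in early 60S assembly, and in both the groups overlapped, with log2 fold changes of -0.071 and -0.065. Without Nup98::Nsd1 array 3, Wdr74 was called lower (-0.13). Both were called lower with 75th percentile centring (-0.27 and -0.26), median centring (-0.24 and -0.23) and the hybridization controls (-0.44 and -0.43).

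Among the nucleolar chaperones, helicase and scaffold proteins, 4 of 5 tested genes fell, with a median of -0.26. Nolc1, or Nopp140, which shuttles snoRNPs and binds RNA polymerase I, read 6158, 6562 and 6585 in mock and 3016, 3158 and 3207 in Nup98::Nsd1 cells, 2.06-fold lower (-1.04, SE 0.045, adjusted p = 4.09e-09 in limma). Ddx21, an RNA helicase that links ribosomal RNA transcription and processing, read 3892, 3602 and 3219.8 against 1835, 1954 and 2016, 1.84-fold lower (-0.88, SE 0.067, adjusted p = 3.51e-07 in limma). In both genes the groups were widely apart. Mybbp1a, a regulator of ribosomal DNA transcription, and Ncl, or nucleolin, one of the most abundant nucleolar proteins, fell by 0.26 and 0.22 on the log2 scale. Npm1, or nucleophosmin, a histone and ribosomal protein chaperone that is often mutated in myeloid leukaemia, read 23599, 24827 and 26722 in mock and 25685, 25304 and 25289 in Nup98::Nsd1 samples. The Nup98::Nsd1 values lay within the mock range (0.023, SE 0.047, adjusted p = 0.675 in limma), and the estimate was -0.34, -0.17 and -0.15 with hybridization control, 75th percentile and median centring, and -0.23 with quantile normalization.

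Many of these genes are read by several probe sets, which often disagreed in size, much as those of other genes did. Over all 78 tested probe sets 55 fell, 4 rose and 19 did not pass, against 27.6% lower and 42.3% higher among all probe sets, and the groups did not overlap in 58 of them (74.4%, against 73.2%). Of the 29 genes with several tested probe sets, 12 fell in all of them, 13 fell in some while the rest did not pass, 2 (Ubtf and Tcof1) had calls in both directions and 2 (Polr1a and Ebna1bp2) had none called. By kind of probe set, 38 of 52 without a letter in the name's suffix fell and 0 rose. Those marked a, which are designed to match several transcripts of a gene, fell in 7 of 12 cases and rose in 3. Those marked s, which can also match other genes, fell in 6 of 9 and rose in 1, and those marked x, with some probes that match other sequences, fell in 4 of 5. In 3 tested probe sets, 1 each of Bop1, Heatr1 and Ebna1bp2, all 3 arrays were Present in 1 group only, and none of these was its gene's brightest. Of the 75 Present on all 6 arrays, 54 fell, 4 rose and 17 did not pass. No matching share over all probe sets is given by kind or for these 75.

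Because 2 probe sets of a gene sit on the same array, their within-array log2 ratio does not depend on how the arrays are centred. Its change between groups was tested for the brightest against each other tested probe set of a gene. It differed in 20 of 40 pairs, from 18 of the 29 genes, against 43.6% of all 8144 such pairs. Among the 37 pairs with both probe sets Present on all 6 arrays, 18 differed, from 16 genes. The matching share over all pairs is not given. In Ubtf the brightest probe set rose (0.11) while the other fell from 1238, 1225 and 1088 to 808, 817 and 799 (-0.55), a difference of 0.66 (SE 0.09, adjusted p = 0.00254 in limma). In Tcof1 the probe sets that rose gave 0.39 and 0.32, while the third fell from 775, 706 and 737 to 669.5, 653 and 609.8 (-0.20), a difference from the brightest of 0.59 (SE 0.093, adjusted p = 0.00409 in limma). The direction of both genes thus depended on which probe set was read.

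Npm1 had a similar split. Its second probe set read 22145, 23379.9 and 25031 in mock and 19605, 19379.7 and 19677 in Nup98::Nsd1 cells, without overlap (-0.26), and differed from the brightest by 0.29 (SE 0.071, adjusted p = 0.0183 in limma). Second probe sets also fell for Nop56 (-0.52) and Polr1c (-0.23), where the brightest did not pass, with differences of 0.45 and 0.30. Larger falls than in the brightest were read for Nop10 (-1.42 against -1.08), Nhp2 (-0.81 against -0.45), Ncl (-0.76 against -0.22), Mybbp1a (-0.58 against -0.26) and Noc4l (-0.78 against -0.31), and each of these pairs differed. For Heatr1 a dim probe set read 218, 203 and 210.0 in mock and 107, 109.5 and 109 in Nup98::Nsd1 cells, where it was Present on no array. It was tested only through the mock group, where it is high. Because it was not detected in Nup98::Nsd1 cells, its fitted 1.94-fold fall is not a reliable size.

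In other genes the dimmer probe set showed less. The second probe sets of Bop1 (0.32, Present on 2 mock arrays), Wdr12 (0.18), Wdr75 (0.28) and Nop16 (-0.14) did not pass and differed from the falls of the brightest by 1.16, 0.88, 0.81 and 0.97 in size. These dim probe sets gave signals of 199.7, 265, 128 and 107 on average in mock cells, and their groups overlapped. That of Bop1 was tested only through the Nup98::Nsd1 group, where its mean was higher, at 251. Its difference of 1.16 is therefore not a reliable size. Pes1 had a dim second probe set that did not pass either (-0.12), though its difference from the brightest did not pass (adjusted p = 0.0551 in limma). For Nolc1 the 3 probe sets gave -1.04, -1.24 and -0.50, all called lower, and for Imp4 they gave -0.79, -0.23 and -0.23, of which 1 of the last 2 passed.

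**Figure D5:**
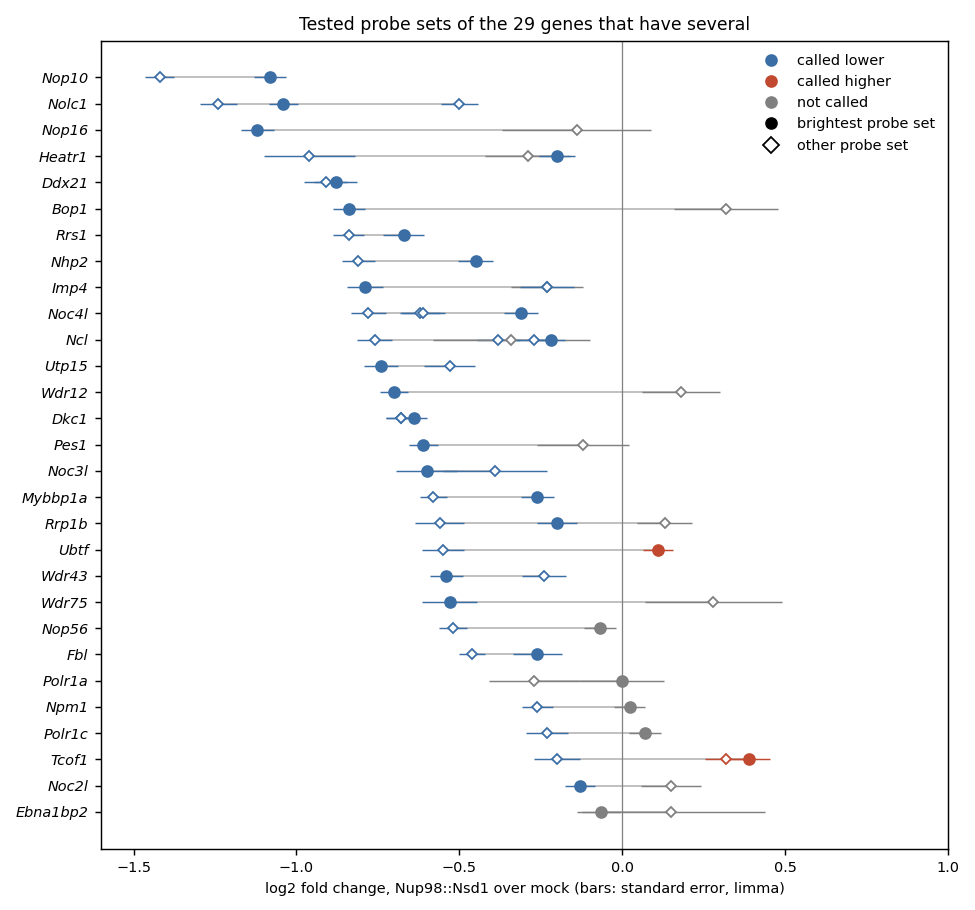
Log2 fold change (Nup98::Nsd1 over mock) of every tested probe set of the 29 genes that have several, with bars for the standard error from limma; filled circles are the brightest probe set and open diamonds the others, blue where called lower, red where called higher and grey where not called. Ubtf and Tcof1 have both colours, at 0.11 and -0.55 and at 0.39, 0.32 and -0.20.

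Other genes of the same pathway, listed by name from textbook complexes, moved much as the 38 did. These lists were chosen with earlier results of these data known, so they are not an independent check. Of 114 such genes 107 were tested: 74 fell, 10 rose and 23 did not pass (69.2% and 9.35%, against 29.5% and 42.9% of all genes). Their median log2 fold change was -0.44, and 95 lay below the all-gene median. Among 36 further small subunit processome genes 28 fell and 0 rose. Pno1, a late 40S factor, went from 4111 ± 47.8 to 1632 ± 88.0 (mean ± SD, n = 3; -1.33), Nol11, a UTP-A protein, from 3058 ± 111 to 1246 ± 52.7 (-1.30) and Utp4 from 3412 ± 51.5 to 1866 ± 44.6 (-0.87). Of 4 Nol11 probe sets 3 fell and 1 rose.

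Among 41 further large subunit genes 26 fell and 4 rose. Lyar (-1.08), the helicase Ddx18 (-1.05, with 1 of its 3 probe sets higher) and Nifk (-0.93) had the smallest p among those that fell. Nop53, a 60S factor that recruits the RNA exosome, rose from 4945 ± 82.1 to 12576 ± 309 (mean ± SD, n = 3), 2.54-fold higher (1.35), and was still called at 0.98 with hybridization control scaling. Zfp622 (0.57) and Gnl2 (0.53) also rose under all scalings.

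Among 9 further RNA polymerase I genes 3 fell and 2 rose. Rrn3, the factor TIF-IA that brings the enzyme to its promoter, fell by 0.79 on the log2 scale, and the subunit genes Polr1e and Polr1d fell by 0.80 and 0.31. Taf1d (0.27) and Baz2a (0.35), a promoter factor subunit and a silencer of ribosomal DNA, were called higher as deposited on their brightest probe sets but stood at -0.10 and -0.016 with hybridization control scaling. Of 7 tested Taf1d probe sets 3 were called lower, 1 higher and 3 not called, so its direction depended on the probe set. Of 8 tested snoRNP assembly factor genes 7 fell and 1 rose. Shq1 and Naf1, both needed to assemble H/ACA particles, fell by 1.25 and 0.53, and Znhit3, which acts on C/D particles, by 0.97, whereas Pih1d1 of the R2TP complex rose by 1.11. Of 13 RNA exosome genes 10 fell, among them Exosc2 (-1.06), Exosc3 (-0.92) and C1d (-0.90), and 3 rose, of which Exosc8 (0.70) kept its direction under all scalings while Exosc5 (0.33) and Exosc9 (0.30) stood at -0.031 and -0.069 with hybridization control scaling.

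Myc read 5178, 5432 and 5493 in mock and 5718, 5358 and 5656 in Nup98::Nsd1 cells on its only probe set. The groups overlapped (0.055, SE 0.043, adjusted p = 0.275 in limma), and with hybridization control scaling the value was -0.31 and was called. Over 20 settings the value ran from -0.31 to 0.20, and in 1 of them Myc was called higher.

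Promoters were read for motifs because the nucleolar genes moved in 1 direction for the most part, and 2 short motifs are textbook features of such promoters: CACGTG, the E-box read by MYC and MAX among others, and CCGGAAG, a core read by ETS factors. The RefSeq promoters (GRCm38.p6, 250 bases before to 50 after each gene's start) held 43 entries for 34 of the 40 genes. Bop1, Npm1, Fbl, Rrp12, Rrs1 and Tcof1 were the genes not matched. CACGTG, which reads the same on both strands, was in 6 of the 43 promoters (14.0%), against 7.15% of all 32851. These belonged to Nop2, Pes1, Utp20, Wdr43, Mybbp1a and Imp4, all 6 of which fell, as did 24 of the 34 matched genes. Those 34 include Npm3 and Rrp9, which were not tested and so could not be called. CCGGAAG, searched on both strands, was in 11 of the 43 promoters (25.6%), against 8.86% of all, from 10 genes of which 7 fell. No CACGTG and CCGGAAG match overlapped in these promoters. A match is a run of letters and not a measured binding site. The shares of all promoters are not limited to genes detected in these cells, and a difference from such genes was not tested. The 6 promoters below are shown because they belong to genes that fell and hold a motif, which stands in capitals. Each is the + strand in 5' to 3' direction, from RefSeq, and Nop2 holds both motifs.
Imp4: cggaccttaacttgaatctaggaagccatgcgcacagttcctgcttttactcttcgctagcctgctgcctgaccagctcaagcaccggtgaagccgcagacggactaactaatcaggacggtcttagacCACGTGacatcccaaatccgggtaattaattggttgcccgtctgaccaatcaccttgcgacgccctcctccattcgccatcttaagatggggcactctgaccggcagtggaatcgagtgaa
Nop2: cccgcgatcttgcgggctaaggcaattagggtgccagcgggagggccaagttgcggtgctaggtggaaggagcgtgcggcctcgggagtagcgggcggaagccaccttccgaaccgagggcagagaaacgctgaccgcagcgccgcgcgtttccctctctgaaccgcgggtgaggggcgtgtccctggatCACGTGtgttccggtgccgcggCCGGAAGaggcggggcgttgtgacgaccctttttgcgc
Pes1: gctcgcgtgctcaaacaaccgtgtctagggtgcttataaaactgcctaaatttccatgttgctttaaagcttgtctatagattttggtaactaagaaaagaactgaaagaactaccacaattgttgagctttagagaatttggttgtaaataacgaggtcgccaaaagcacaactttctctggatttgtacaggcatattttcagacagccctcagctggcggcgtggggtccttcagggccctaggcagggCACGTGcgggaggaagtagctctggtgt
Wdr43: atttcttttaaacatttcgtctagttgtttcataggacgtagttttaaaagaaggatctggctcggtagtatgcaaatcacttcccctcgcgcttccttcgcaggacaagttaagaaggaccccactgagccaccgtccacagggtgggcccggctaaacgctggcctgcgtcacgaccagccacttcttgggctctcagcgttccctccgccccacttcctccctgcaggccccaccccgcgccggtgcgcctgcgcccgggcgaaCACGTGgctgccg
Nolc1: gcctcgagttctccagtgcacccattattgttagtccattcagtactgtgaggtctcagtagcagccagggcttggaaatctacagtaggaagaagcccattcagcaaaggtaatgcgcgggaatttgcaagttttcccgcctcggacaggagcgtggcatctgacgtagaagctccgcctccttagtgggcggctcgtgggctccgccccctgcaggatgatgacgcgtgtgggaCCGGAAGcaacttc
Nhp2: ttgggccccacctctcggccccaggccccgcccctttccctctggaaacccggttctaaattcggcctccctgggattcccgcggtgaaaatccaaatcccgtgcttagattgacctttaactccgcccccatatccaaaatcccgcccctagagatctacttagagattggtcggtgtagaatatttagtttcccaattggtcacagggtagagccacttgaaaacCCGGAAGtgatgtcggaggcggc
In the order printed these are Imp4 at chr1:34439579-34439828, Nop2 at chr6:125131633-125131882, Pes1 at chr11:3963725-3964004, Wdr43 at chr17:71615965-71616244, Nolc1 at chr19:46075597-46075846 and Nhp2 at chr11:51619523-51619772. Those of Pes1 and Wdr43 run 30 bases past the start site, and the other promoters end at it. The genes went down by 0.79, 0.51, 0.61, 0.54, 1.04 and 0.45 on the log2 scale in the same order.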

How the data were processed

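RNA of 3 mock and 3 Nup98::Nsd1 samples of 32D cells was measured on 1 Mouse Genome 430 2.0 array each. The authors used MAS5, per the submitters' processing notes; the sources used here give neither its version nor a scaling target. The deposited values are, per the file headers, a scaled intensity, a detection p-value and a detection call, and the trimmed mean of signals was 500.0 on every array. Differences between arrays in total RNA are therefore not seen in these values.

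Of 45101 probe sets, 64 were controls. Of the rest, 34945 had 1 symbol in the platform's 2016 annotation, 932 had more than 1 and 9160 had no entry. By gene identifier 34741 were matched to RefSeq and took its symbol, whether or not it differed. Signals under 1 (3183) were set to 1 and taken to log2. Probe sets Present on every array of 1 group or both (20494) were fitted with limma 3.58.1 in R 4.3.3 (lmFit, eBayes with an intensity trend) and adjusted by Benjamini-Hochberg, with a threshold of 0.05. A fold change is Nup98::Nsd1 over mock. The script was tested on simulated data. The fit of ratios between probe sets of a gene was added after values were seen.

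The 40 genes and all lists were chosen with earlier results of these data known. Values on each array are given for the 12 largest changes and for genes not called or called higher. Of the other lists, up to 3 called genes in each direction with the smallest p are named. Alternatives changed the pseudocount (16 or 64), detection filter, scaling, source of values, variance model, array weights, replicate block, the reading of several probe sets and the arrays included. No genome sequence beyond the promoter table was used here, and no protein sequence was analysed here.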

Additional observations from a re-analysis of the deposited data

Results flagged for a closer look

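The array's 18S ribosomal RNA control probe sets are used in no comparison above, and 1 of the 3 read higher in all Nup98::Nsd1 samples. The probe set at the 5' end read 28467, 29961 and 32197 in mock and 35616, 34807 and 34830.4 in Nup98::Nsd1 samples, without overlap, with means of 30208 ± 1877 and 35085 ± 460.2 (SD, n = 3 each). The middle probe set read 24019.8, 25182 and 26189 against 27019, 25906 and 26775, with overlap. The probe set at the 3' end read 13606, 13599 and 13943 against 13017, 12426 and 13163, lower in all Nup98::Nsd1 samples. No test was run on these controls, and ribosomal RNA, which has no poly(A) tail, is not the intended target of labelling from 3' ends.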

How the results depend on the processing

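Over 19 alternatives, 24 of the 28 genes that fell kept direction and call. The exceptions were Fbl, Rrp1b, Noc2l and Wdr75. None of the 3 that rose kept both. Some alternatives could hardly remove a fall. The other source of values was the same to within a relative difference of 5.0e-06. Both centrings and the hybridization controls moved all genes down. The count of nucleolar genes called higher was 1 with no detection filter, 75th percentile centring, median centring or no intensity trend, 0 with hybridization control scaling, and 1 to 2 when 1 array was left out; it was 1 without mock array 1, Nup98::Nsd1 array 2 or Nup98::Nsd1 array 3. Their median log2 fold change was -0.82 with hybridization control scaling, -0.65 with 75th percentile centring, -0.38 with quantile normalization, -0.62 with median centring and -0.39 with the mean of probe sets. Of the other ribosome biogenesis genes, 5 were called higher with hybridization control scaling. Signs turned for Nop56 (0.061), Npm1 (-0.23) and Ebna1bp2 (0.058) with quantile normalization. They turned for Nop14, Npm1, Gnl3, Polr1c and Ubtf with 75th percentile centring (-0.10, -0.17, -0.064, -0.13 and -0.086), median centring (-0.069, -0.15, -0.037, -0.10 and -0.059) and hybridization control scaling (-0.27, -0.34, -0.23, -0.30 and -0.26), whose shift of the all-gene median is given above. They turned for Polr1a with array weights (0.02) and for Npm1 (-0.12), Noc2l (0.01), Polr1c (-0.078), Ubtf (-0.22) and Ebna1bp2 (0.042) with the mean of probe sets. With 1 array left out, Npm1 ran from -0.019 to 0.071 and Polr1a from -0.093 to 0.093. Beyond the scaling shift, the cause was not tested.

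Same-numbered arrays did not deviate together (correlations -0.017, -0.0111 and 0.0212), so the numbers do not pair the samples. With the replicate block 28 genes fell, 2 rose, the median was -0.45 and 14257 probe sets were called, against 14335 without it. Ubtf was no longer called. Dim probe sets limit several second readings.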
